A study of Mus musculus with 20 samples.

Results

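Sp8 and Sp9 encode zinc finger transcription factors of the Sp family, and these 2 genes were taken by name from the 22350 protein-coding genes of the annotation on chromosomes 1 to 19 and X. Each was described over its gene body with 100 kb on either side, on build mm9. Sp8 (ENSMUSG00000048562.5) lies on the plus strand at chr12:120084802-120091051, with annotated transcript starts at 120084802 and 120085664. Sp9 (ENSMUSG00000068859.5) lies on the plus strand at chr2:73109982-73122763, with transcript starts at 73109982 and 73110023. Positions below are given in kb from the first start site of each gene, and negative positions lie before it.

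The series profiled the embryonic mouse forebrain at day 13.5 by chromatin immunoprecipitation and sequencing (ChIP-seq). H3K27ac, H3K4me1, H3K4me3 and H3K27me3 were profiled in C57BL/6 medial ganglionic eminence (MGE) of Nkx2-1cKO embryos, called KO here, a conditional knockout of the homeodomain gene Nkx2-1, and of wild-type embryos, called WT. The factors NKX2-1 and LHX6 were profiled in wild-type basal ganglia of another strain, CD-1. The labels name neither the Cre driver of the knockout nor the number of embryos pooled. With 1 library for each mark in each genotype, there are no replicates and no test was possible, and any difference describes the pair of libraries compared.

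Sp proteins bind GC-rich DNA through zinc fingers, and in the ganglionic eminences Sp8 and Sp9 work downstream of the Dlx homeodomain genes. Sp8 is known for the dorsal lateral and caudal ganglionic eminences and for olfactory bulb interneurons. Sp9 is known for striatopallidal projection neurons and for cortical interneurons born in the MGE. H3K27ac marks active enhancers and promoters, H3K4me1 enhancers and promoter flanks, H3K4me3 promoters, and H3K27me3 chromatin bound by Polycomb repressors. In bulk tissue, fewer cells carrying a mark and less of the mark per cell cannot be told apart.

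After removal of duplicates, the mark libraries held 26.8 to 69 M tags in KO and 28.8 to 59.7 M in WT. For H3K4me3 the control held 39 M tags in KO and 63.2 M in WT. Duplicates made up 34% of the H3K4me3 tags in KO and 28.3% in WT. The part of these differences in the H3K4me3 lengths was not tested. The KO lists covered more of the genome than the WT lists for every mark, by 1.096-fold for H3K4me1, 1.117-fold for H3K27ac, 1.222-fold for H3K4me3 and 1.316-fold for H3K27me3. A longer covered length at a gene in KO therefore has to be read against this shift. To describe the tissue, 6 MGE genes were read, which together carried 43.9 kb of H3K27ac within 10 kb of their gene bodies in KO and 99.9 kb in WT. A list of 6 genes of the neighbouring lateral and caudal eminences carried 165.9 kb in KO and 79.1 kb in WT. For 6 genes of the pallium the length was 11.7 kb in KO and 7.2 kb in WT. Most of that lay at Emx2, with 9.46 kb in KO and 6.34 kb in WT. Lists of 4 microglial and 4 oligodendrocyte lineage genes carried 5.4 and 18.2 kb in KO, and 5 and 18.7 kb in WT. Among 5 endothelial and blood genes, 4 had no H3K27ac in either genotype, and Pecam1 had 11.62 kb in KO and 12.41 kb in WT. The lists were chosen with earlier results of these data known, so their shifts are a description. The part of these shifts in the results at Sp8 and Sp9 was not tested. At the targeted gene itself, Nkx2-1, H3K27ac within 10 kb covered 14.34 kb in KO and 17.27 kb in WT, a length that does not measure the deletion.

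The sequences that carry most of what follows are the sites where NKX2-1 and LHX6 peaks overlapped near the genes. There were 4 such sites within 150 kb of the gene bodies, 1 of them inside the 100 kb windows and the others beyond it. They are printed as 200 bases of the plus strand of build mm9 (NCBIM37), with the bases from one factor's summit to the other's in capitals. In order they are chr12:119958774-119958973, chr2:72995324-72995523, chr2:73006144-73006343 and chr2:73106933-73107132.
Sp8, −125.9 kb: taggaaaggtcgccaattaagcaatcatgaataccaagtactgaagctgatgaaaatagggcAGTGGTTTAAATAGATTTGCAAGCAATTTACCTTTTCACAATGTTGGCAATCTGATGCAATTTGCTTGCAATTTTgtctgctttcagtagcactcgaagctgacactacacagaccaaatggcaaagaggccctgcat
Sp9, −114.6 kb: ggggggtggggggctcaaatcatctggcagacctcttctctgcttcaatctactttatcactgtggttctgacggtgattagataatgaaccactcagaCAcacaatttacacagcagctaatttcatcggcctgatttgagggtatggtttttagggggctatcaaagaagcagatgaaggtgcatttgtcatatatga
Sp9, −103.7 kb: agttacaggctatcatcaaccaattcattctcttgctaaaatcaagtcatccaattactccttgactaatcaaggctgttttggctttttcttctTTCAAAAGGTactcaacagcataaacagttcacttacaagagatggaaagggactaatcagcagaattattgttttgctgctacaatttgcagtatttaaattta
Sp9, −3.0 kb: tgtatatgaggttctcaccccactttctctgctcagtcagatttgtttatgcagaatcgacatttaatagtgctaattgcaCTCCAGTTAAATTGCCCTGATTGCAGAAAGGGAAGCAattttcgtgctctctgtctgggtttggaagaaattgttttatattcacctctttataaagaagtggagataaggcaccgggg
Their GC content was 40.5%, 44.5%, 34% and 40.5% in the order shown.

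The promoters of the genes share a stretch of letters. The word GCGGCACTTCAAAGC, of 15 letters, was the longest found both in the RefSeq promoter of Sp9 and in a RefSeq promoter of Sp8, that of a start site 0.9 kb after the first. It was picked by comparing these 2 genes, so its presence in both is a description. Among 32851 RefSeq promoters (table of build GRCm38.p6, 250 bases before the start), 0.00609% held the word, and Sp8 and Sp9 were the 2 genes of 27025 that did. The word begins 16 bases before the second annotated start of Sp8 and 29 bases before the first start of Sp9. The 300 bases before these starts, chr12:120085364-120085663 and chr2:73109682-73109981 on the plus strand of mm9, are shown with the word in capitals.
Sp8 promoter: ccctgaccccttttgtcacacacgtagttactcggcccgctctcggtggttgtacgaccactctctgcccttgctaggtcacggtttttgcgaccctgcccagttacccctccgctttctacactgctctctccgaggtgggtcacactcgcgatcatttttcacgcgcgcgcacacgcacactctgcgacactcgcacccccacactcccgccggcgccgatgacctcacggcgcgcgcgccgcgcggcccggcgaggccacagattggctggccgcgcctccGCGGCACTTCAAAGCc
Sp9 promoter: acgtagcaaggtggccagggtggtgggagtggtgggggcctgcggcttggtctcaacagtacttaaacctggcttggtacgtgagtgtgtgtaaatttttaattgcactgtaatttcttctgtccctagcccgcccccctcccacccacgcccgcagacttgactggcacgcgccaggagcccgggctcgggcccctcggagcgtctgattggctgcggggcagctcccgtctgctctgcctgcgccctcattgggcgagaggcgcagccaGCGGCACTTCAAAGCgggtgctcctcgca
Both stretches lay fully within H3K4me3 and H3K27me3 regions in KO and in WT. H3K27ac covered 272 of the 300 bases at Sp8 in KO and 187 in WT, and 181 at Sp9 in KO and 233 in WT. The GC box GGGCGG, a letter string bound by Sp proteins and found in 32.7% of promoters on either strand, occurred 1 time in the RefSeq promoter of 250 bases that holds the word at either gene. In the 300 bases shown it occurred 1 time at Sp9 and 0 times at Sp8. The RefSeq promoter of Sp8 reaches 42 bases past the second annotated start, and its GC box lies there.

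The genes carried different amounts of active chromatin. Within 100 kb, H3K27ac covered 3.64 kb at Sp8 in KO and 3.58 kb in WT. At Sp9 it covered 20.9 kb in KO and 22.4 kb in WT. Sp8 thus had less H3K27ac than most genes with at least 2 kb of it, since 12.5% of them had as little in KO and 15.7% in WT, whereas Sp9 had as much as or more than 86.1% of them in KO and 88.9% in WT. H3K4me1 covered 5.33 kb at Sp8 in KO and 6.54 kb in WT. At Sp9 it covered 20.3 kb in KO and 17.5 kb in WT. H3K4me3 covered 11.1 kb at Sp8 in KO and 8.36 kb in WT. At Sp9 it covered 23.4 kb in KO and 22.6 kb in WT. H3K27me3 was long at both genes, with 24.5 kb at Sp8 in KO and 21.1 kb in WT. At Sp9 it covered 20.3 kb in KO and 18.4 kb in WT.

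**Figure D1:**
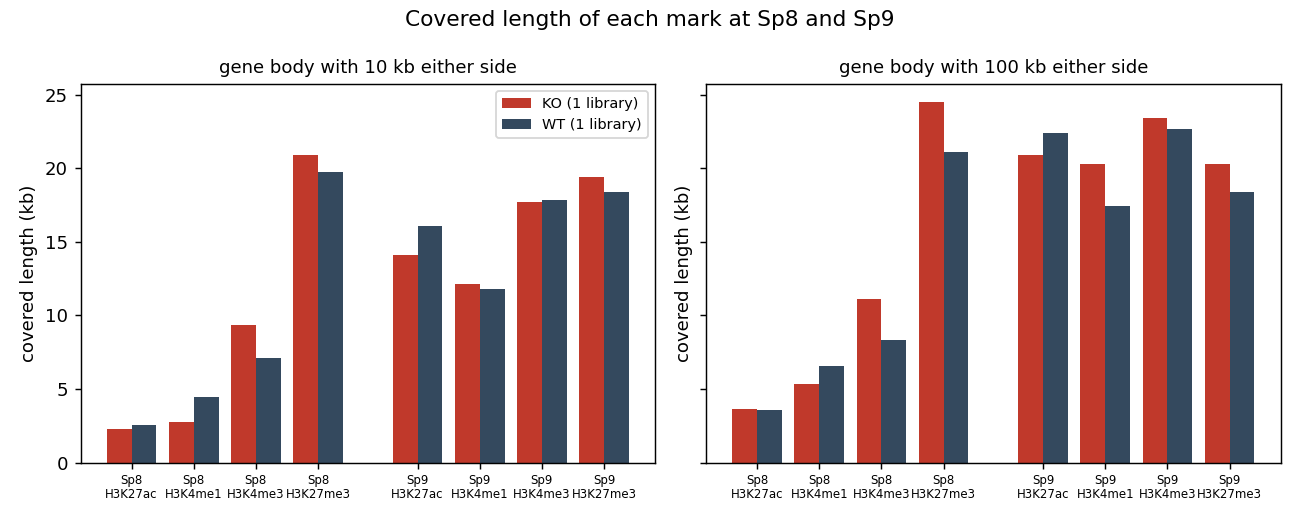
Covered length in kb of each mark at Sp8 and Sp9, within 10 kb (left) and 100 kb (right) of the gene body, with the KO library (red) left of the WT library (dark). Each bar is 1 library. Sp9 had several times the H3K27ac of Sp8 in either genotype. The KO and WT bars of a mark lie within 1.5-fold of each other, except H3K4me1 at Sp8 within 10 kb (2.79 kb in KO and 4.49 kb in WT).

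No mark at either gene changed by 1.5-fold between KO and WT in these windows, although with regions kept at a −log10 p of at least 10 the H3K27ac ratio of Sp8 was 1.507. The ratio of covered length, KO over WT, at Sp8 was 1.02 for H3K27ac and 0.81 for H3K4me1, while H3K4me3 had 1.33 and H3K27me3 1.16. At Sp9 the ratio was 0.94 for H3K27ac and 1.16 for H3K4me1, while H3K4me3 had 1.03 and H3K27me3 1.10. Over all genes with at least 2 kb in the genotype that covered more, a fall of at least 1.5-fold was seen in 2.28% of genes in H3K27ac, 0.744% in H3K4me1, 0.146% in H3K4me3 and 1.46% in H3K27me3. A rise of that size was seen in 8.03%, 4.23%, 5.78% and 24.1% of genes for the marks in the same order. The H3K4me1 ratio of Sp8 was low among genes, with 6.1% at or below it, and so was the H3K4me3 ratio of Sp9, with 6.4% at or below it. The median gene had a ratio of 1.008 for H3K4me1 and 1.136 for H3K4me3.

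Close to Sp8, H3K4me1 was the only mark with a ratio past 1.5-fold. Within 10 kb of the gene body it covered 2.79 kb in KO and 4.49 kb in WT, a ratio of 0.62 that passed the 1.5-fold limit, as did 2.87% of genes that fell and 5.8% that rose in windows of this size. In the gene body alone it covered 0.79 kb in KO and 2.06 kb in WT. The other 7 ratios within 10 kb stayed inside the limit, which 3.58% of genes passed downward and 8.98% upward for H3K27ac, 0.147% and 6.14% for H3K4me3, and 1.59% and 22% for H3K27me3. At Sp9 H3K27ac covered 14.1 kb within 10 kb in KO and 16.1 kb in WT, a ratio of 0.875, with 12.5% of genes at or below it.

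**Figure D2:**
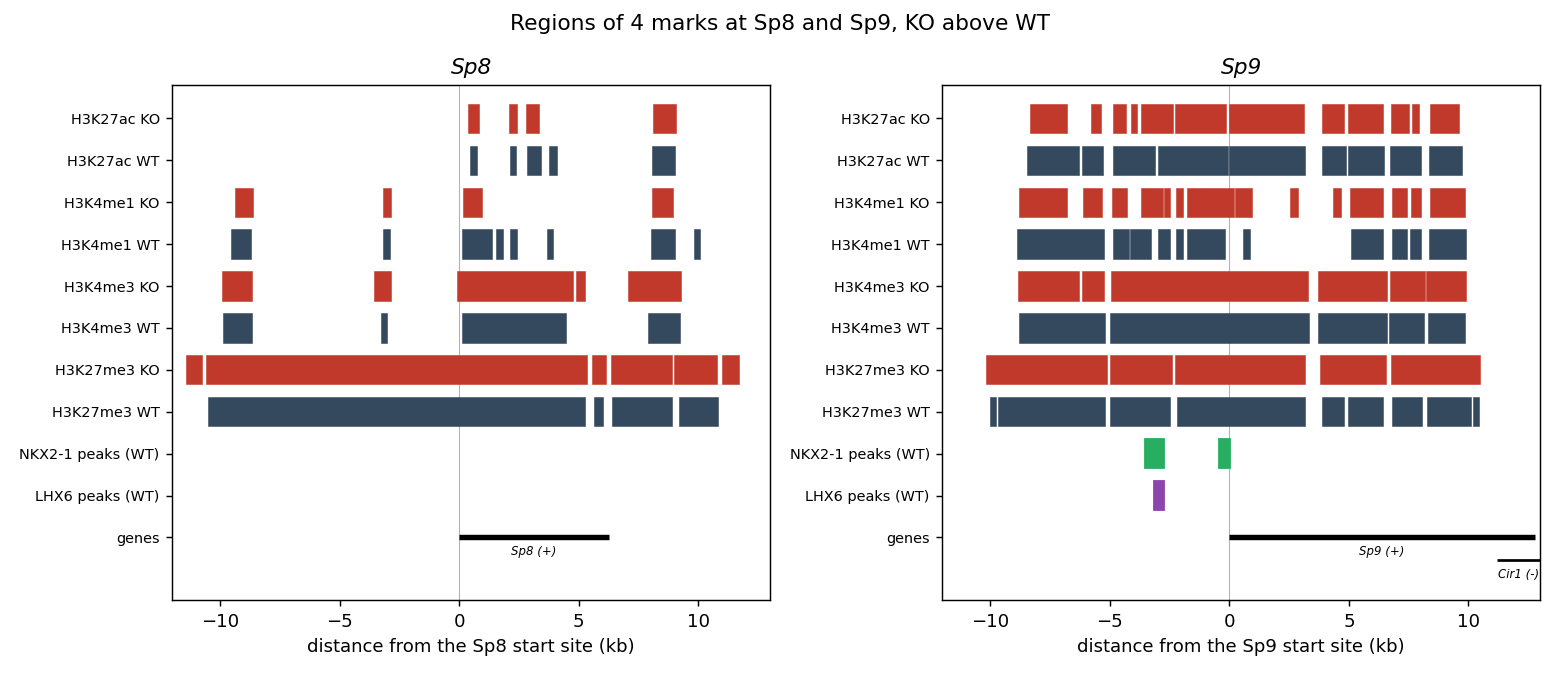
Regions of each mark and peaks of each factor within about 12 kb of Sp8 (left) and Sp9 (right), by distance in kb from the first start site, with the KO row (red) above the WT row (dark) for each mark and NKX2-1 (green) and LHX6 (purple) peaks below. At Sp8 the H3K27me3 region of 15.9 kb in KO and 15.8 kb in WT spans the start and most of the gene and its upstream side, and 3 WT H3K4me1 regions inside the gene, after its start, have no KO counterpart.

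At the single-region level, 1 long H3K27me3 region covered the start and most of the body of Sp8. That region ran from −10.6 to 5.3 kb in KO (15.93 kb, fold enrichment 17.12) and from −10.5 to 5.3 kb in WT (15.79 kb, fold 14.66). These folds were above 98.8% of the KO list and 99% of the WT list. It was longer than 99.64% of H3K27me3 regions in the KO list and 99.68% in the WT list. Fold enrichment is the authors' ratio of ChIP to control at the summit and is used here to place a region within its own list. KO had 5 further H3K27me3 regions that no WT region overlapped, of 10 in the window, whereas none of 5 WT regions lacked a KO partner. Genome-wide 46.6% of KO and 15.7% of WT H3K27me3 regions had no partner. The KO regions without a partner of highest fold lay at −11.4 to −10.8 kb (fold 6.63), 11 to 11.7 kb (4.83) and −14 to −13.3 kb (3.87), at the outer edges of the domain.

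The start of Sp8 lay in an H3K4me3 region of 4.83 kb in KO (fold 21.59) and 4.34 kb in WT (fold 22.05). In KO this region covered the first start site, at −0.1 to 4.7 kb, and in WT it began 0.1 kb after it. The strongest H3K27ac, H3K4me3 and H3K4me1 regions of the WT window sat together just downstream of the gene, at about 8 to 9 kb. There H3K27ac reached a fold of 8.55 in KO, above 79.4% of its list, and 8.04 in WT, above 81.5%. H3K4me3 reached a fold of 32.05 in KO, above 77.3% of its list, and 28.85 in WT, above 77.5%. H3K4me3 at this site was 2.23 kb long in KO and 1.36 kb in WT. The other H3K27ac regions beyond the gene lay at 80.6 and 84.4 kb in KO and 80.7 and 84.4 kb in WT, inside Abcb5, a transporter gene. The nearest annotated start site to these KO regions was one of Abcb5, 2.6 and 6.6 kb away, while the outermost start of that gene is outside the window.

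In H3K4me1, Sp8 had regions in each genotype without a partner in the other, and a shorter region over its second start site in KO. Of 10 KO regions 3 had no WT partner, and of 13 WT regions 6 had no KO partner, beside 23.8% of KO and 15.2% of WT regions genome-wide. At a −log10 p of at least 10 these counts were 1 of 6 in KO and 1 of 6 in WT. The KO regions without a partner lay between −87.5 and −34.4 kb, with folds of 3.92, 3.83 and 3.16. The WT regions without a partner of highest fold were at 2.1 to 2.4 kb in an exon (fold 4.08), at −96.8 to −96.3 kb between genes (3.64) and at −97.4 to −97.2 kb (3.42). Within the gene, 2 further WT regions without a partner lay at 1.5 to 1.8 kb (fold 2.98) and 3.7 to 3.9 kb (3.31). The region over the second start site was 0.79 kb long in KO (fold 5.25, above 69.4% of its list) and 1.25 kb in WT (fold 5.52, above 74.9%). The last of the 6 WT regions without a KO partner lay after the gene, at 9.8 to 10.1 kb (fold 3.20). In H3K27ac, none of 6 KO regions lacked a WT partner, and 1 WT region of 7 lacked a KO partner, at 3.8 to 4.1 kb in an exon (fold 3.68). Genome-wide 29.6% of KO and 19.4% of WT H3K27ac regions had none. H3K4me3 had 1 KO region of 8 without a WT partner, at 4.9 to 5.3 kb (fold 4.58), and none of 7 WT regions, beside 28.1% of KO and 3.65% of WT regions genome-wide.

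**Figure D3:**
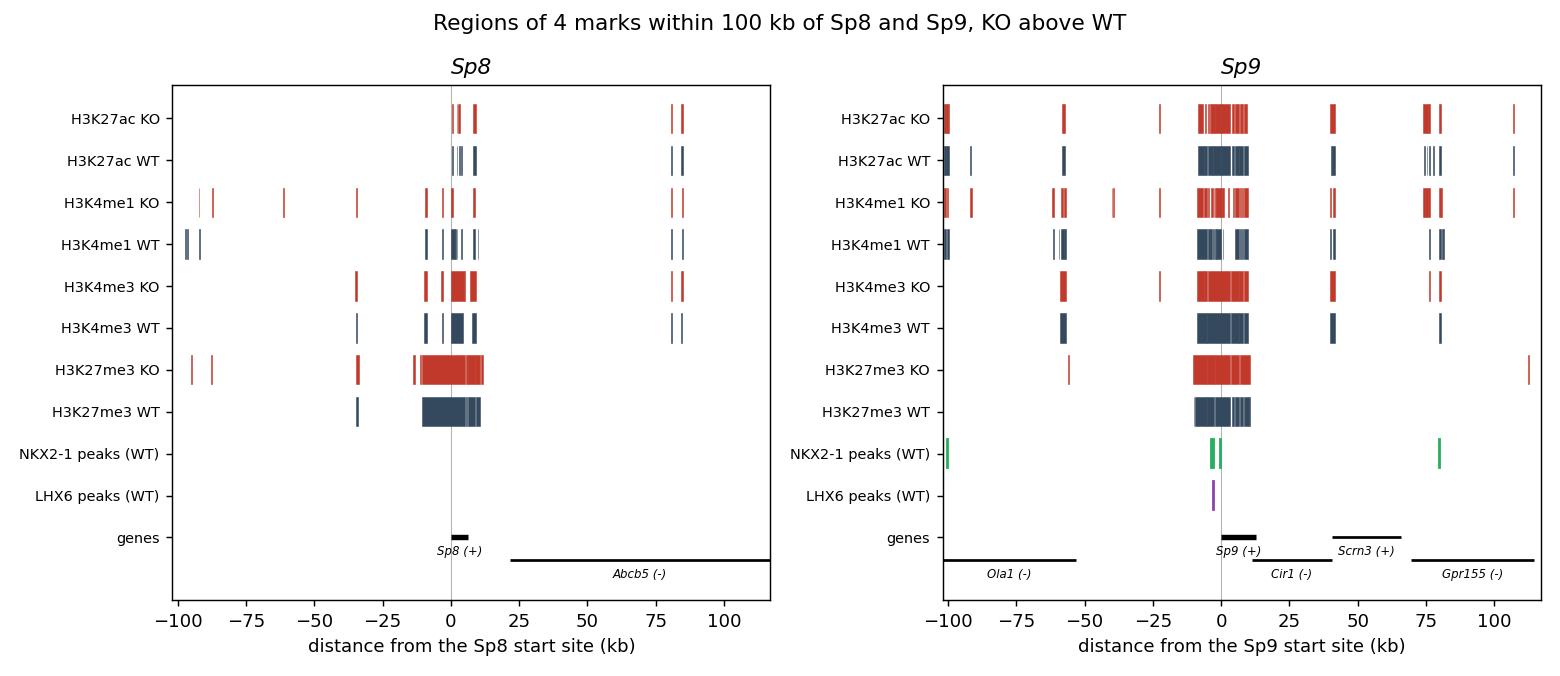
Regions of each mark (KO row in red above WT row in dark) and NKX2-1 and LHX6 peaks over the gene bodies of Sp8 (left) and Sp9 (right) with 100 kb either side, by distance in kb from the first start site, with genes as lines. Sp8 has marks at the gene, at 2 sites in Abcb5 and at small sites before it, and no factor peak. Sp9 has a marked domain, marked sites in its neighbours, 3 NKX2-1 peaks and 1 LHX6 peak. A further NKX2-1 peak at −100.4 kb, just outside the window, is also drawn.

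Sp9 stood in a domain of about 20 kb that carried all 4 marks. Joining regions of any mark and genotype that lay within 2 kb of each other gave 1 stretch from −10.2 to 10.5 kb. In it H3K27ac covered 14.07 kb in KO and 16.08 kb in WT, H3K4me1 12.16 kb in KO and 11.76 kb in WT, H3K4me3 17.72 kb in KO and 17.84 kb in WT, and H3K27me3 19.58 kb in KO and 18.4 kb in WT. The H3K4me3 region over the start was 8.25 kb long in KO and 8.32 kb in WT, longer than 99.73% of the KO list and 99.77% of the WT list. Its fold was 33.8 in KO, above 80.4% of its list, and 38.53 in WT, above 98.7%.

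Acetylation of the Sp9 domain was in shorter pieces in KO before the start site. In KO the region of highest H3K27ac fold ran from −3.7 to −2.3 kb (1.36 kb, fold 11.95, above 92.9% of its list), with 2 weaker ones before it between −4.9 and −3.8 kb. In WT a single region ran from −4.9 to −3.1 kb (1.77 kb, fold 16.18, above 99.5% of its list). The next region ran from −2.3 to −0.1 kb in KO (2.17 kb, fold 10.31) and from −3 to −0.1 kb in WT (2.92 kb, fold 12.85). The region over the start of the gene was of similar length, 3.1 kb in KO and 3.15 kb in WT. H3K27me3 went the other way in form, with the domain covered by 5 regions in KO and by 9 in WT. Its highest fold there was 16.57 in KO, above 98.6% of its list, and 9.99 in WT, above 93.1%.

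H3K4me3 and H3K27me3 lay on the same bases over most of either gene's H3K4me3. At Sp8 the overlap was 9.68 kb in KO and 7.22 kb in WT, or 87.2% of H3K4me3 in KO and 86.4% in WT. At Sp9 it was 17.3 kb in KO and 16.66 kb in WT, or 73.9% of H3K4me3 in KO and 73.6% in WT. The genes differed in what else lay there. All 4 marks shared 1.26 kb at Sp8 in KO and 1.62 kb in WT, and 10.72 kb at Sp9 in KO and 10.99 kb in WT. H3K27me3 with none of the other marks covered 14.75 kb at Sp8 in KO and 13.47 kb in WT, against 3.02 kb at Sp9 in KO and 1.59 kb in WT. Whether the marks shared cells was not measured, since the tissue is a mixture.

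Over the whole Sp9 window, regions of H3K27ac without a partner in the other genotype numbered 1 of 20 in KO and 2 of 20 in WT, beside 29.6% of KO and 19.4% of WT regions genome-wide. In H3K4me1 they numbered 9 of 30 in KO and 2 of 22 in WT, beside 23.8% and 15.2%. In H3K4me3 they numbered 2 of 11 in KO and 0 of 8 in WT, beside 28.1% and 3.65%, and in H3K27me3 2 of 7 in KO and 0 of 9 in WT, beside 46.6% and 15.7%. Away from the domain, the window held marked sites in and at the neighbours of Sp9. In KO 1 site between genes, at −22.8 to −22.4 kb, carried H3K27ac (fold 4.1), H3K4me1 (4.68) and H3K4me3 (4.58), and no WT region of any of these marks overlapped it. Inside Gpr155, which encodes a receptor-like membrane protein, the stretch at 74.1 to 81.5 kb had 3.26 kb of H3K27ac in KO and 2.38 kb in WT, and 3.53 kb of H3K4me1 in KO and 1.98 kb in WT. Its KO H3K4me1 region at 74.8 to 75.7 kb (fold 4.78) had the highest fold of the KO regions without a WT partner, and H3K4me3 at 76 to 76.5 kb (6.98) was likewise found in KO alone. Cir1 overlaps the end of Sp9 on the other strand. At the shared start region of Cir1 and Scrn3, 39.7 to 41.7 kb away, H3K4me3 covered 1.95 kb in KO and 1.89 kb in WT, and at that of Ola1, an ATPase gene, 2.02 kb in KO and 1.97 kb in WT.

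No NKX2-1 or LHX6 peak overlapped the Sp8 window. The Sp9 window held 3 NKX2-1 peaks and 1 LHX6 peak. Of all genes, 44% had at least 1 NKX2-1 peak in such a window, 6.53% an LHX6 peak and 4.32% a site where the factors' peaks overlapped. The strongest, chr2:73106447-73107245 between genes before Sp9, had its main summit at −2.97 kb with a fold of 9.26, above 95.8% of the 5683 NKX2-1 peaks. The LHX6 peak chr2:73106841-73107258 overlapped it, with a summit 36 bases away and a fold of 6.43, above 72.7% of 1651 LHX6 peaks. This is the last of the 4 shared sites printed above. The other NKX2-1 peaks were weak in their list, at the start of Sp9 (chr2:73109548-73110014, fold 2.9, above 2%) and in Gpr155 at 80.09 kb (chr2:73189950-73190209, fold 3.2, above 7.2%).

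The shared site before Sp9 lay in regions of all 4 marks in KO and in WT, as did 5.9% of the 1034 NKX2-1 peaks that overlapped an LHX6 peak. Of those 1034 peaks 42.4% overlapped WT H3K27ac, and of these 18.5% overlapped none in KO. Within 1 kb of the NKX2-1 summit, H3K27ac covered 1805 bases in KO and 1899 in WT, with a highest fold of 11.95 in KO and 16.18 in WT. H3K27me3 covered 1867 bases in KO and 1723 in WT. The H3K27me3 region that overlapped the peak had a fold of 10.22 in KO, above 92.1% of its list, and 6.88 in WT, above 82.9%. Around the weak peak in Gpr155, H3K27ac covered 976 bases in KO and 892 in WT, and H3K27me3 was absent from both lists.

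Just beyond the windows stood more factor peaks, and this wider view of 150 kb was added after their values were seen. Before Sp8, with no start site of another protein-coding gene closer, NKX2-1 and LHX6 peaks overlapped at −125.9 kb (chr12:119958634-119959192 for NKX2-1, fold 9.26, above 95.8% of its list; chr12:119958583-119959167 for LHX6, fold 8.62, above 88.8%). In an intron of Ola1 before Sp9, NKX2-1 peaks lay at −114.6 kb (fold 7.82), −103.7 kb (fold 12.67, above 98.7% of the list) and −100.4 kb (fold 9.64), the last ending 147 bases outside the window. LHX6 peaks overlapped the first and the second of these, with folds of 5.15 and 9.78. Of all genes, 53.4% had an NKX2-1 peak within 150 kb, 8.96% an LHX6 peak and 5.81% a shared site.

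**Figure D4:**
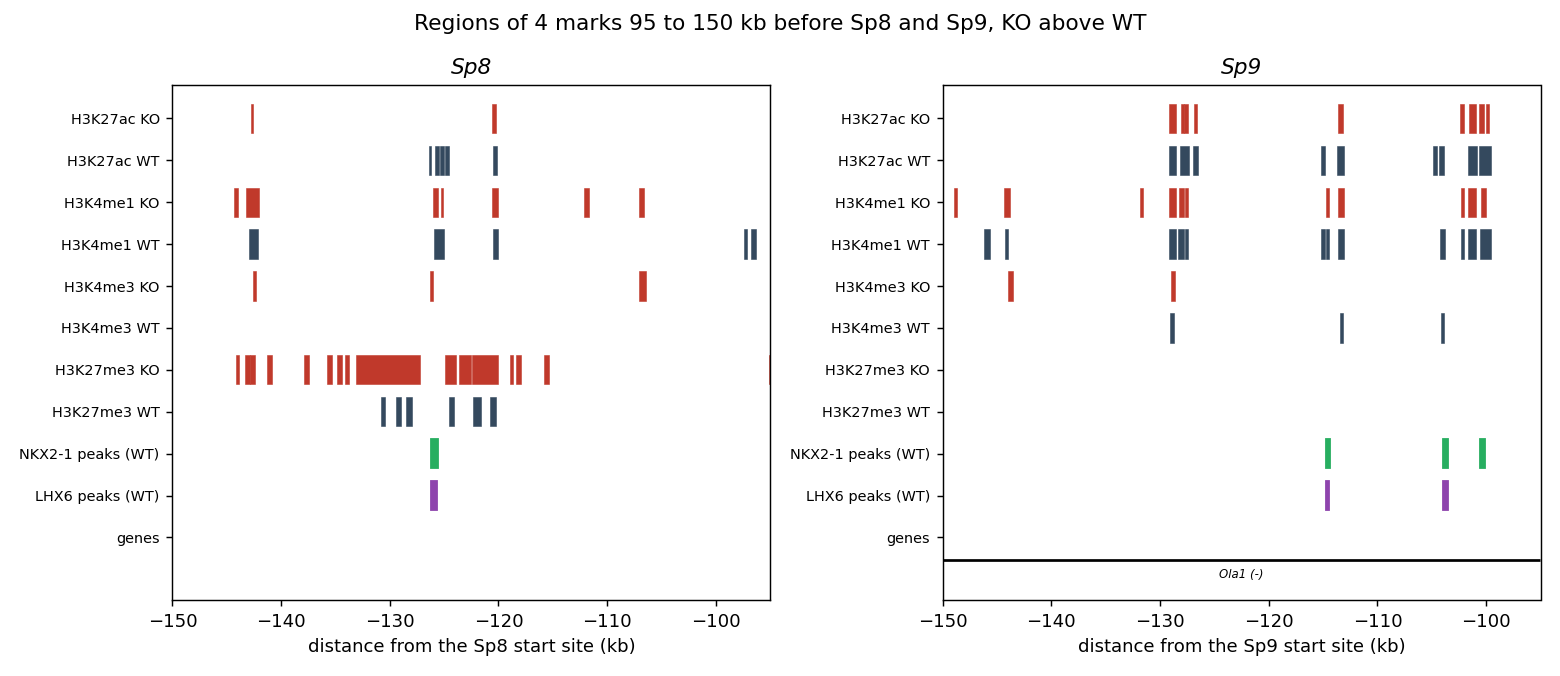
Regions of each mark (KO row in red above WT row in dark) and factor peaks from 150 to 95 kb before Sp8 (left) and Sp9 (right), by distance in kb from the first start site. Before Sp8, H3K27me3 covers 14.87 kb in KO and 3.26 kb in WT, and the WT H3K27ac regions at the shared peak have no KO counterpart; before Sp9, WT H3K27ac at the shared peak at −103.7 kb has none either.

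The shared site before Sp8 had no H3K27ac region in KO and was acetylated in WT. Within 1 kb of its NKX2-1 summit H3K27ac covered 0 bases in KO and 930 bases in WT, in 3 regions of which the strongest had a fold of 4.82. H3K4me1 lay on the site in both, with 715 bases in KO and 933 in WT. H3K27me3 covered 16 bases within 1 kb of the summit in KO and 0 in WT, and no base of the NKX2-1 peak in either genotype. Over the 50 kb beyond the window, KO had 15 H3K27me3 regions covering 14.87 kb, the longest 5873 bases and the strongest of fold 8.56, above 88.3% of its list. WT had 6 regions covering 3.26 kb, the strongest of fold 3.5, above 26.3% of its list. With this flank the H3K27me3 length of Sp8 within 150 kb was 39.4 kb in KO and 24.4 kb in WT, a ratio of 1.62. A rise of at least 1.5-fold in such windows was seen in 24.6% of genes and a fall in 1.49%, so the ratio is common. The other 7 ratios stayed inside the limit, which 1.9% of genes passed downward and 7.6% upward in H3K27ac, 0.391% and 4% in H3K4me1, and 0.083% and 5.31% in H3K4me3. The difference of 15 kb was larger than in most genes, with 1.51% at or above it. With the KO list cut to the genome-wide length of the WT list, the flank held 11.25 kb in KO and 3.26 kb in WT. The 150 kb window was added after its values were seen, so this rank and these lengths describe the flank and test nothing.

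The sites before Sp9 also had less H3K27ac in KO. At −103.7 kb, within 1 kb of the summit, H3K27ac covered 0 bases in KO and 624 in WT, H3K4me1 0 bases in KO and 440 in WT, and H3K4me3 0 bases in KO and 327 in WT. At −114.6 kb H3K27ac covered 113 bases in KO and 608 in WT, and at −100.4 kb 1110 bases in KO and 1573 in WT. Over the last site KO had regions of 411 and 250 bases with folds of 3.17 and 3.05, against a WT region of 1077 bases with a fold of 8.61. No H3K27me3 region of either genotype lay in the 50 kb beyond the Sp9 window on this side. Of the 4 shared sites near the genes, 4 had fewer acetylated bases in KO and 2 had none. Of 500 shared peaks genome-wide with WT H3K27ac within 1 kb, 65.6% had fewer bases in KO and 20.4% had none. The sites were few and were noticed for their values, so nothing particular to these genes follows from the counts.

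Short cores of the factors' motifs were counted at the sites. In 200 bases, CACTTGA or CACTCAA, cores of the NK2 type, were found on either strand in 21.4% of NKX2-1 summit windows, and TAATTA or TAATGA, LIM homeodomain cores, in 25.8%. In LHX6 summit windows the shares were 8.5% and 41.6%. Of the 7 NKX2-1 peaks within 150 kb of the genes, 1 had an NK2 core and 3 a LIM core. The cores, in capitals, are shown for the 2 NKX2-1 peaks that had one and no LHX6 peak, chr2:73189974-73190173 in Gpr155 and chr2:73009523-73009722 in Ola1, on the plus strand of mm9, where TCATTA is TAATGA read on the other strand.
Sp9, 80.1 kb: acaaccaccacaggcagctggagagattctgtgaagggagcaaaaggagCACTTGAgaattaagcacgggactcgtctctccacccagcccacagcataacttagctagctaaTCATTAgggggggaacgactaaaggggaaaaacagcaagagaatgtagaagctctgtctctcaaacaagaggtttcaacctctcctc
Sp9, −100.4 kb: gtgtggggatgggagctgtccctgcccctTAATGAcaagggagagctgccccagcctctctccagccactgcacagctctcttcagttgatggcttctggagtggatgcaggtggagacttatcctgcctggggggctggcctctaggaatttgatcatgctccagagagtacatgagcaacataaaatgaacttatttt
The absence of these letters says only that they are not in the window.

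The other Sp genes, read within 10 kb of the gene body, showed no change past the limit. Of the 7 genes Sp1 to Sp7, none passed 1.5-fold in any mark, where 5 had the minimum length of H3K27ac, 6 of H3K4me1, 7 of H3K4me3 and 4 of H3K27me3. Their median ratio was 1.08 for H3K27ac and 1.18 for H3K27me3, beside 1.05 and 1.17 over all genes. Sp1, Sp3 and Sp4 had no H3K27me3 in either genotype, and Sp2 had 2.55 kb in KO and 1.76 kb in WT. Sp5, a WNT target gene, and Sp6 and Sp7, known from teeth and bone, had 14.62, 11.73 and 9.38 kb in KO, and 11.81, 11.68 and 8.31 kb in WT. None of the 7 had as much H3K27ac as Sp9, the highest being Sp2 with 4.12 kb in KO and Sp3 with 3.39 kb in WT.

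Among 26 genes that act upstream of, with or downstream of Sp8 and Sp9, H3K27ac rose past the limit at 3 and fell at 3, of 19 with the minimum length, beside 8.98% of all genes that rose and 3.58% that fell. Of these, Lhx6 and Lhx8 are also on the MGE list and Nr2f2 is on that of the lateral and caudal eminences. H3K27ac rose at Tshz1, Pax6 and Nr2f2, with 4.46 kb in KO and 1.37 kb in WT at Pax6. It fell at Lhx6 (1.7 kb in KO and 26.04 kb in WT), Lhx8 (1.11 kb in KO and 9.98 kb in WT) and Prox1 (5.83 kb in KO and 10.82 kb in WT). H3K4me1 rose at 1 gene and fell at 2 of 23, beside 5.8% and 2.87% of all genes. H3K4me3 rose at 3 and fell at 2 of 23, beside 6.14% and 0.147%. H3K27me3 rose at 5 and fell at 0 of 24, beside 22% and 1.59%. Dlx1, Dlx2, Dlx5 and Dlx6, which act upstream, passed in no mark. Dlx2 had 14.54 kb of H3K27ac in KO and 15.02 kb in WT, and Dlx1 23.59 kb in KO and 24.21 kb in WT. Six3, a striatal target, had 18.41 kb in KO and 14.43 kb in WT, within the limit, and Drd2, a receptor of striatopallidal neurons, 1.9 kb in KO and 0.67 kb in WT, under the minimum. At Prox1, H3K27me3 covered 34.09 kb in KO and 16.14 kb in WT.

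**Figure D5:**
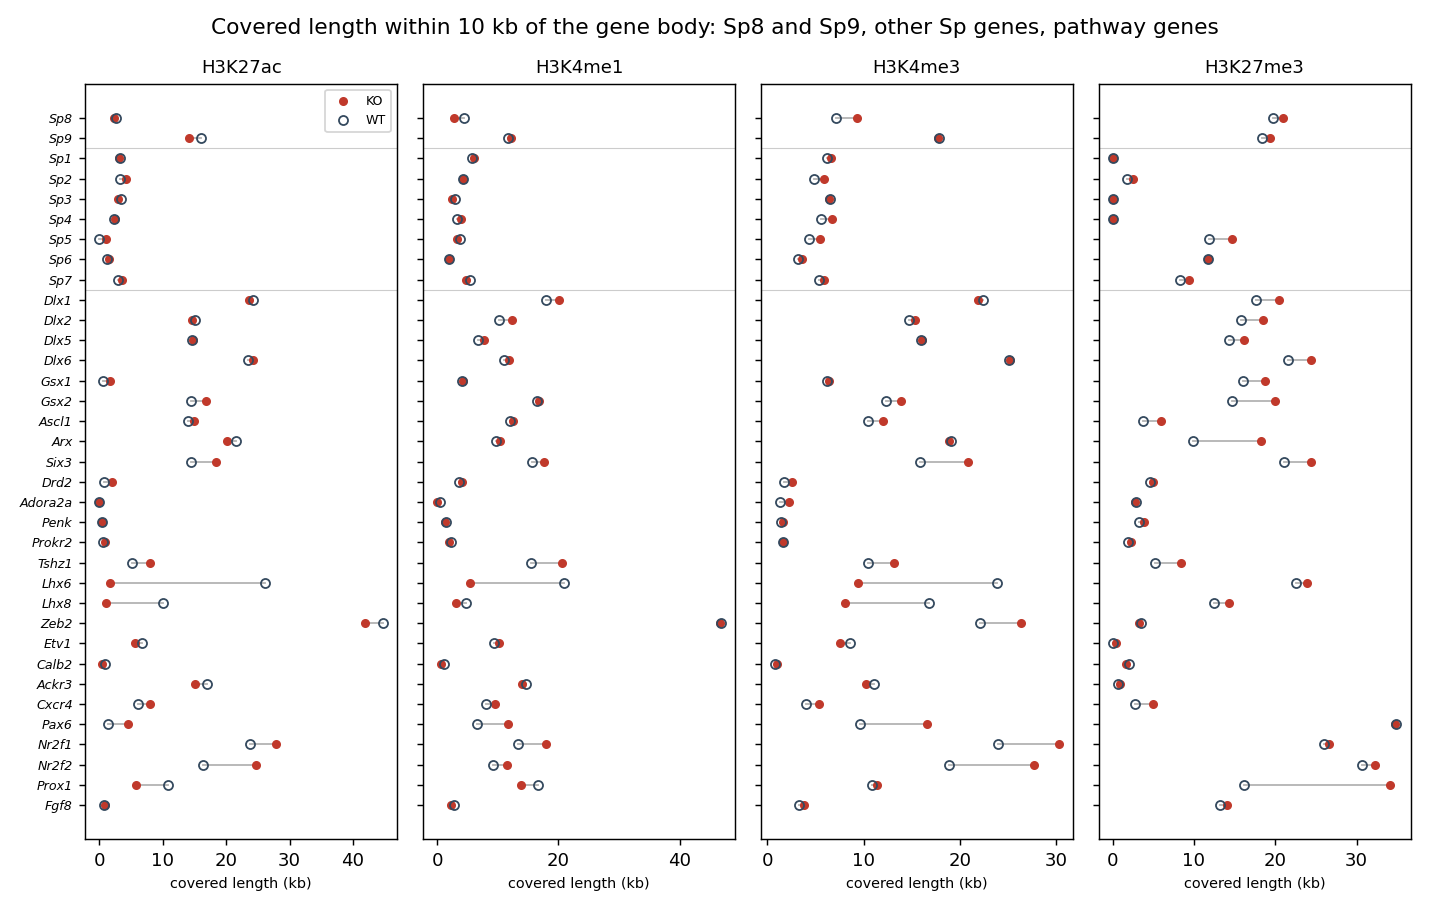
Covered length in kb of each mark within 10 kb of the gene body in KO (filled red) and WT (open dark), for Sp8 and Sp9 at the top, Sp1 to Sp7 below them and 26 pathway genes below those. Sp9 lies near Dlx2 and Dlx5 in H3K27ac length and Sp8 among Sp1 to Sp7, while the long lines of Lhx6 and Lhx8 mark the 2 largest falls of H3K27ac in the list.

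By their marks, the 2 genes resembled different genes more than each other. Likeness was the distance over the 8 covered lengths (4 marks, KO and WT, log2 of kb plus 1, within 10 kb) to 22344 genes for Sp8 and 22336 for Sp9. Sp9 was closest to Dlx2 (0.44), Nkx2-1 (0.61) and Six3 (0.88), where the median gene stood at 8.25. Among the genes close to Sp8 were Lhx1 (0.87) and Hsf4 (1.04), where the median gene stood at 6.61. Lhx1 encodes a LIM homeodomain factor and Hsf4 a heat shock factor. Sp9 ranked 2258 among the genes nearest to Sp8, and Sp8 ranked 745 among those nearest to Sp9, at a distance of 4.11.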

How the data were processed

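Peak lists of 10 ChIP-seq libraries were used, and the other 10 samples (input and IgG controls) are not analysed here. Per the file headers, the authors called peaks with MACS 2.1.0.20140616 at a p cutoff of 1e-05 against a control library, with a fixed local background, tags extended to 250 bases and 1 tag kept per position; the submitters' processing notes also name BWA 0.6.2, CASAVA 1.8.2 and bcl2fastq 1.8.4. A separate input library was the control for H3K4me3; a common one per genotype served H3K27ac, H3K4me1 and H3K27me3. The deposited columns are the pileup signal, the −log10 p-value and the fold enrichment, a ratio over control. Libraries held 26.8 to 89.1 M tags (M for mega), and no other sample's columns were present.

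Summits with the same region were joined, and covered bases were counted on chromosomes 1 to 19 and X, with GENCODE M1 genes on NCBIM37 (mm9). A call needed at least 1.5-fold either way and at least 2 kb in the genotype that covered more. Regions had a partner when they shared any base. Named regions without a partner were those of highest fold. Of the genes most alike in their marks, the nearest 3 to each member were taken, and 1 of them is not reported here. Gene lists (64 entries, all matched, 2 by synonym) were read within 10 kb. The members and lists were chosen with earlier results of these data known. Alternatives were a stricter p, equal list length, other windows, another minimum and other partner rules. Python 3.11.15, pandas 2.3.3, numpy 2.4.6, pysam 0.24.0 and matplotlib 3.10.9 were used. The counting was checked against bedtools 2.31.1 on 300 genes and tested on 2000 simulated windows, with 0 mismatches.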

Additional observations from a re-analysis of the deposited data

How the results depend on the processing

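Of 108 alternatives, 12 of them for a 150 kb window chosen after seeing the data, 79 kept the direction and call of a ratio and stayed within 1.5 times of the value or count, 26 moved a count by more than that or moved a ratio across 1, 3 brought a ratio past the 1.5-fold limit and 0 turned a call round. The cause of these moves was not tested. The H3K27ac ratio of Sp8, KO over WT, was 1.507 at a −log10 p of at least 10, 0.859 at equal list length, 0.908 within 50 kb and within 10 kb, and 0.815 within 150 kb. The H3K4me1 ratio of Sp8 was 0.904 at the stricter p, 0.721 at equal list length, 0.703 within 50 kb, 0.621 within 10 kb and 0.994 within 150 kb. The H3K27me3 ratio of Sp8 was 1.616 within 150 kb. The H3K4me3 ratio of Sp9 was 0.959 at equal list length and 0.993 within 10 kb.

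At the stricter p, regions in KO with no WT partner numbered 2 for H3K27ac, 1 for H3K4me1 and 2 for H3K27me3 at Sp8, and 2 in H3K27ac, 5 in H3K4me1, 1 in H3K4me3 and 1 in H3K27me3 at Sp9. Regions in WT with no KO partner then numbered 0 for H3K27ac and 1 for H3K4me1 at Sp8, and 1 for H3K4me1 at Sp9, and the NKX2-1 peaks at Sp9 numbered 1. When a partner within 1 kb was accepted, the counts were 0 for H3K4me3 and 3 for H3K27me3 in KO at Sp8, 0 for H3K27ac in WT at Sp8, and 0 for H3K4me1 in WT at Sp9. When a partner had to cover 50% of a region, H3K4me3 at Sp8 had 2 in KO. Within 150 kb there were 1 NKX2-1 and 1 LHX6 peak at Sp8, and 6 NKX2-1 and 3 LHX6 peaks at Sp9.

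No paired analysis was possible because each mark and genotype has 1 library and the results come from no test. A region near the p cutoff can be listed in one genotype and missed in the other at the depth of these libraries, so an absent region is one not called.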
